A study of Mus musculus with 2 samples.

Results

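Amino acid transporter genes were taken as every gene whose symbol is Slc3a2 or belongs to the Slc1a, Slc6a, Slc7a, Slc36a, Slc38a or Slc43a families. The rule found 60 genes among the 31053 of the matrix, and 25 of them had at least 50 UMIs (unique molecular identifiers, each standing for 1 captured transcript) over the 4 cell classes compared. A further 17 had 1 to 49 UMIs and 18 had none there, 13 of which had none in any barcode. Just inside the limit of 50 lay Slc6a4 with 56 UMIs and Slc7a8 with 132, and just outside it Slc43a3 with 44 and Slc36a4 with 39. The cells came from mouse tumours, of which 3 samples were labelled vehicle and 3 ACSS2i (an inhibitor of ACSS2, the enzyme that makes acetyl-CoA from acetate). They were pooled on 1 droplet lane with 6 antibody tags named U2, U3, U4, D0, D1 and D4, and an expression and a protein library were made from the same droplets. The labels give the mice as "NGS mouse", name no cell line, dose, time or age, and do not say which tag was which treatment, so the tags stand here as 6 samples of unknown treatment and no arm was compared. Bmal1 status, which the design text names, is not given for this pool.

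Cells cannot pass most amino acids through the membrane unaided, and carriers of several families move them as exchangers, sodium-coupled importers or facilitators. Slc3a2 encodes a heavy chain that brings several Slc7a light chains to the surface, among them Slc7a5 for large neutral amino acids and Slc7a11, which takes up cystine in exchange for glutamate and so feeds glutathione synthesis. Shortage of amino acids raises translation of the factor ATF4, which is known to induce many of these genes, Slc7a11 included, and oxidative stress induces Slc7a11 through the factor NRF2. Macrophages that express arginase use arginine brought in by the cationic carriers Slc7a1 and Slc7a2, and activated lymphocytes depend on glutamine, which Slc38a1, Slc38a2 and Slc1a5 carry. The rule also takes carriers of other small molecules in the Slc6a family, such as those for creatine (Slc6a8), taurine (Slc6a6), noradrenaline (Slc6a2) and serotonin (Slc6a4).

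The classes were gates on marker UMIs. Barcodes with at least 3 UMIs of Krt8 and Krt18 together and none of Ptprc numbered 5212 and held 139545308 UMIs. The other classes were 396 macrophage barcodes with at least 3 UMIs of C1qa, C1qb and C1qc, 730 T barcodes with at least 2 UMIs of Cd3d, Cd3e and Cd3g, and 121 NK barcodes with Ncr1 or Klrb1c and no Cd3 gene. The keratin class had Sox9 at 760 CPM, Hmga2 at 548 CPM and Cxcl1 at 2339 CPM (CPM is UMIs per 1000000 gene UMIs of the class), but the epithelial genes Epcam, Cdh1, Krt7 and Krt19 were at 0.07 CPM or less and Cldn4 at 0, while the fibroblast gene Dcn was at 2580 CPM. It is therefore called Krt8-positive here. Macrophage barcodes had Lyz2 at 6237 CPM and NK barcodes Gzma at 1344 CPM, and T barcodes had Cd3e at 386 CPM. T barcodes also held fibroblast transcripts. Col1a1 at 306 CPM, Col1a2 at 227 CPM and Lum at 32.7 CPM were above the Krt8-positive levels of 29.2, 5.08 and 0.32 CPM. Dcn at 910 CPM and Pdgfra at 11.4 CPM were below the Krt8-positive levels of 2580 and 13.4 CPM. The part of fibroblast transcripts in the T levels below was not tested.

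The immune gates let in barcodes that also carried keratin transcripts. Barcodes with 3 or more UMIs of Krt8 and Krt18 were 39 of the macrophage class, 29 of the T class and 8 of the NK class, and they held 40.3%, 33.1% and 32.6% of the UMIs of these classes. The summed level of Sox9 and Hmga2, set relative to Krt8-positive barcodes, was 38.5% in macrophage, 34.7% in T and 24.8% in NK barcodes. Without the keratin-bearing barcodes it was 3.80%, 5.64% and 1.79%. Transporter levels are therefore given for all barcodes of a gate and for the remaining ones, called keratin-low, which were 357 macrophage barcodes (1628085 UMIs), 701 T barcodes (1411279 UMIs) and 113 NK barcodes (428132 UMIs). The median barcode held 25137.5 UMIs in the Krt8-positive class and 4120, 1609 and 3291 in the keratin-low macrophage, T and NK classes.

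The levels of the pool were compared first as ratios with exact binomial 95% intervals, which cover counting error only. These ratios include barcodes without a tag, whose sample is unknown. They were 1850 of the 5212 Krt8-positive barcodes, 1 of the NK barcodes and none of the macrophage and T barcodes. A gene was called higher or lower at 2-fold or more with at least 10 UMIs in the higher class and with the lower class raised to 3 UMIs where it had fewer. Direction was also counted over the tags that had at least 20 barcodes in both classes, which left 4 tags for keratin-low macrophages (U2, U4, D0 and D1), all 6 for T and 3 for NK barcodes (U2, D0 and D1). Over the same tags, the UMIs of keratin-low and Krt8-positive barcodes were summed per tag and compared with edgeR's quasi-likelihood test, with the tag as a block and Benjamini-Hochberg adjustment over 12625 genes. This test over samples was added after the levels had been seen, and a gene passed it at an adjusted p under 0.05. With 3 to 6 tags it takes much of its estimate of spread from all genes together. A small p therefore need not mean that a difference was repeated over tags. Slc7a8 in keratin-low NK barcodes passed at an adjusted p of 0.00012 by edgeR, though 2 of 3 tags had no UMI. Reads come from the 3′ end of the transcript, so a level counts transcripts and is not divided by gene length.

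Among the 25 transporters, those with the largest excess in macrophages over Krt8-positive cells were Slc7a8, Slc38a1, Slc43a2 and Slc7a11. Slc7a8 had 2 UMIs in Krt8-positive barcodes, 4 in NK barcodes and none in T barcodes. It therefore met the UMI minimum for the 25 only through its macrophage UMIs. Its macrophage excess was thus a condition of its entry, and its place in the counts of higher members below is not an independent result. Of the 25 transporters, 8 were called higher in macrophage barcodes, beside 11.7% of 12625 genes, and 2 of the 20 that could be called lower were (Slc6a2 and Slc1a3), beside 13.8% of genes. In keratin-low macrophages 9 were called higher, beside 14.1% of genes, with Slc38a7 added to the 8, and 5 of 18 were lower, beside 25.6%. The median log2 ratio of the 25 members was 0.47 in macrophage barcodes against -0.03 for all genes. Slc38a7, a lysosomal exporter of glutamine, had 13.5 CPM in keratin-low macrophages and 6.56 CPM in Krt8-positive barcodes, a ratio of 2.06 (1.28 to 3.14) that was present in 3 of 4 tags. In the test within tags 12 members were higher in keratin-low macrophages, beside 20.1% of genes, namely these 9, Slc3a2, Slc6a6 and Slc7a2. The 7 lower ones, beside 26.0% of genes, were Slc1a3, Slc1a4, Slc38a2, Slc6a2, Slc6a8, Slc6a9 and Slc7a6. Slc38a7, at an adjusted p of 0.048, no longer passed without U2, D0 or D1. Slc7a2, Slc38a9 and Slc6a9 did not pass without D1, nor Slc7a6 and Slc1a3 without U2, nor Slc6a2 once any 1 tag was left out.

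In T and NK barcodes the members called higher were about as frequent as among all genes. In T barcodes 3 members were called higher (Slc38a1, Slc1a5 and Slc38a9), beside 13.1% of genes, and 7 of 18 lower, beside 14.5%. The lower ones were Slc6a8, Slc7a11, Slc6a9, Slc7a2, Slc38a7, Slc1a4 and Slc1a3. In NK barcodes 2 were called higher (Slc38a1 and Slc1a5), beside 8.30%, and 3 of 11 lower (Slc6a8, Slc7a2 and Slc1a4), beside 21.2%. In keratin-low barcodes the same T and NK genes were called higher, beside 15.8% and 9.23% of genes. Slc6a6 then joined the lower ones in T barcodes (8 of 18, beside 26.9%), and Slc6a6 and Slc7a6 those in NK barcodes (5 of 9, beside 33.5%). The median log2 ratio of the members was -0.49 in T and 0.04 in NK barcodes, against 0.10 and 0.18 for all genes.

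In the test within tags 4 members were higher in keratin-low T barcodes (Slc38a1, Slc1a5, Slc38a9 and Slc3a2), beside 22.1% of genes, and 11 were lower, beside 23.9%. The lower ones were Slc7a2, Slc6a8, Slc6a6, Slc1a4, Slc1a3, Slc7a11, Slc6a9, Slc38a2, Slc7a7, Slc38a3 and Slc6a2. Of these, Slc6a2 and Slc38a3 did not pass once any 1 tag was left out, Slc7a7 did not unless that tag was U4, Slc38a2 did not pass without U2, U4, D1 or D4, and Slc6a9 not without U2 or D1. In keratin-low NK barcodes 3 members were higher, beside 11.3% of genes, and 5 lower, beside 15.1% (Slc7a2, Slc6a8, Slc6a6, Slc38a2 and Slc1a4). The higher ones were Slc38a1, Slc1a5, which did not pass without D0, and Slc7a8, whose 4 UMIs lay in 1 barcode and whose difference turned its sign without D1. Slc1a4 did not pass once any 1 tag was left out, and Slc6a6 not without D1.

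**Figure D1:**
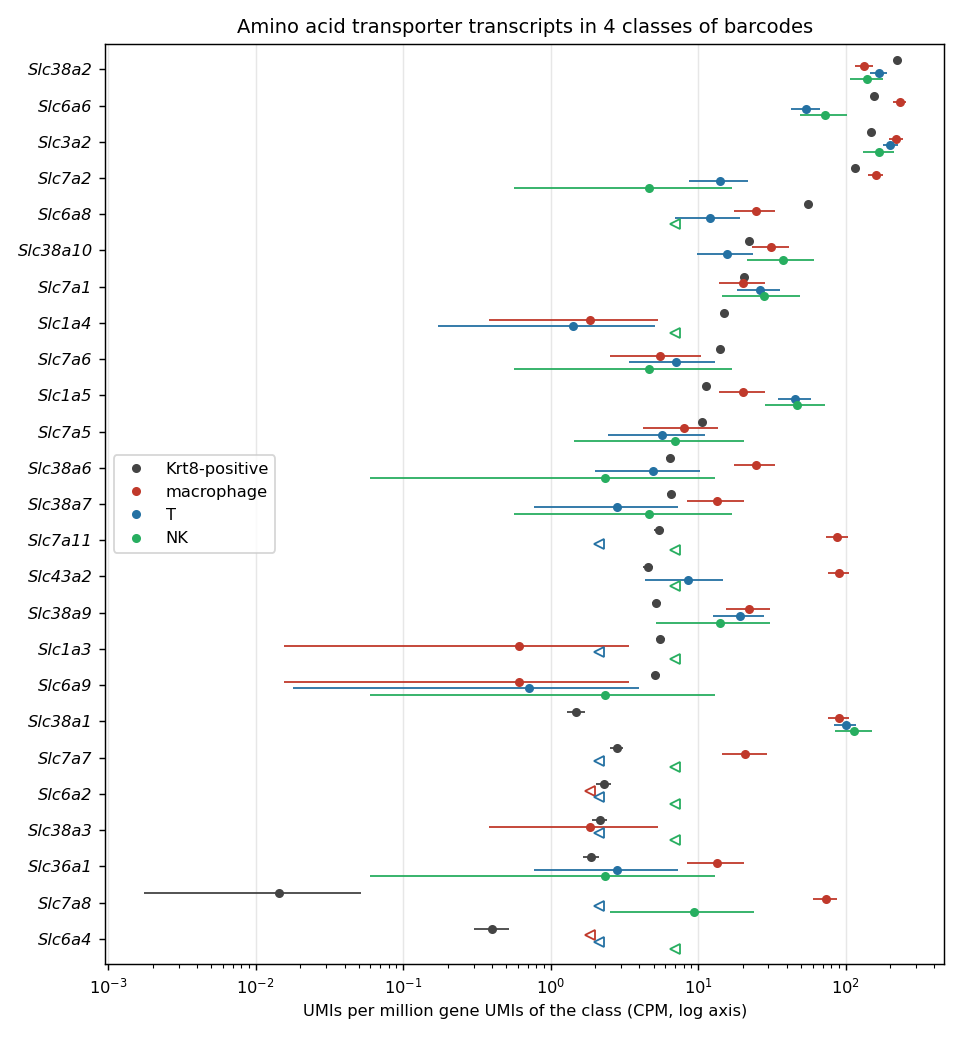
Level of the 25 transporters with at least 50 UMIs, as CPM on a log axis, in Krt8-positive barcodes (dark) and in keratin-low macrophage (red), T (blue) and NK (green) barcodes. Points are summed levels, lines exact Poisson 95% intervals, and open triangles the limit of 3 UMIs where a class had none; Slc38a1 sits near 100 CPM in the 3 immune classes and at 1.49 CPM in Krt8-positive barcodes.

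The heavy chain Slc3a2 (chromosome 19, 8706882 to 8723369, minus strand, GRCm38) was present in every class at similar level. It had 148 CPM in Krt8-positive barcodes, 197 CPM in macrophage, 193 CPM in T and 173 CPM in NK barcodes. In keratin-low macrophages the level was 219 CPM, 1.48-fold (1.33 to 1.65) that of Krt8-positive barcodes and higher in 4 of 4 tags (adjusted p = 3.4e-05 by edgeR). In keratin-low T barcodes it was 201 CPM, a ratio of 1.36 (1.21 to 1.53), higher in 5 of 6 tags (adjusted p = 0.0064). For NK barcodes the interval of the ratio, 0.890 to 1.43, spanned 1. None of these ratios reached 2-fold.

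Slc7a11, the cystine and glutamate exchanger (chromosome 3, 49892526 to 50443614, minus strand), was high in macrophages and undetected in lymphoid barcodes once keratin-bearing barcodes were left out. It had 59.8 CPM in macrophage and 87.8 CPM in keratin-low macrophage barcodes, against 5.43 CPM in Krt8-positive ones, a ratio of 16.2 (13.4 to 19.4) for the keratin-low set. By tag, keratin-low macrophages had 124 CPM in U2, 71.4 in U4, 48.0 in D0 and 80.2 in D1, while Krt8-positive barcodes of the 6 tags lay between 1.63 and 12.5 CPM. The lowest macrophage value was thus above the highest Krt8-positive one, and the adjusted p within tags was 3.37e-58. Keratin-low T and NK barcodes had no Slc7a11 UMI. With a count of 0 taken as up to 3 UMIs, this allows up to 2.13 CPM in T barcodes. In NK barcodes it allows up to 7.01 CPM and so does not separate them from Krt8-positive barcodes. The 2 UMIs found with all T barcodes included (0.95 CPM) lay in keratin-bearing ones.

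The 250 bases before the RefSeq start of Slc7a11 are printed because they hold 2 matches to an amino acid response element, the site through which ATF4 is known to act, and those of Slc3a2 because this gene moved with the amino acid response in Krt8-positive cells without such a match. Capitals mark matches to TGATGNAA on either strand, and both sequences are RefSeq promoter windows of build GRCm38.p6, minus strand, written 5′ to 3′. The window of Slc3a2 belongs to an internal start, 9472 bases inside the gene as annotated above, and the bases before the outermost start were not searched.
Slc7a11, chr3:50443614-50443863: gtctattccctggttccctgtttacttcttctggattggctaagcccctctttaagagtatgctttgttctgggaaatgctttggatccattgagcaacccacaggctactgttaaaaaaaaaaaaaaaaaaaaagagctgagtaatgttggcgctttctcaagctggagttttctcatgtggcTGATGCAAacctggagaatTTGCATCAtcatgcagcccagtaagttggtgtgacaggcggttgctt
Slc3a2, chr19:8713898-8714147: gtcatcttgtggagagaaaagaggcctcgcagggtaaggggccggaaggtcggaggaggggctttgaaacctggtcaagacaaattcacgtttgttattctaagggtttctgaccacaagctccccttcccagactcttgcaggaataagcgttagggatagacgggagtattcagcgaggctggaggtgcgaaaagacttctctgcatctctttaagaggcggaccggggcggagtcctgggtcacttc
In Slc7a11 the matches are TGATGCAA, 66 to 59 bases before the start, and TTGCATCA, the same motif on the other strand, 47 to 40 bases before it. Promoter windows (250 bases before to 50 after a start) were found for 17 of the 25 members, and 3 of the 17 held TGATGNAA or its complement TTNCATCA: Slc7a11, Slc1a4 and Slc7a7. Over all genes with a window the share was 4.51%. The antioxidant motif TGACNNNGC, read on both strands, was in 5 of the 17 (Slc36a1, Slc38a2, Slc6a9, Slc7a1 and Slc7a6) and in 14.0% of genes. It was not in the window of Slc7a11. Both Slc6a9 matches lay in windows of internal starts, 14844 and 21041 bases inside the gene. Of the 26 windows of these members, 6 belong to starts over 1000 bases from the start of the gene. No member held both motifs, and a match describes letters only.

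Slc7a8, another light chain of Slc3a2 that exchanges neutral amino acids (chromosome 14, 54722209 to 54781946, minus strand), was nearly confined to macrophages among these 4 classes. It had 46.2 CPM in macrophage and 73.1 CPM in keratin-low macrophage barcodes, from 119 UMIs, against 2 UMIs in all Krt8-positive barcodes (0.014 CPM). On those 2 UMIs the ratio is 5100 with a counting interval from 1381 to 42598.5. The tags gave 78.8 CPM in U2, 35.7 in U4 (on 3 UMIs), 42.7 in D0 and 82.7 in D1, and D1 and U2 stood above the other tags. No UMI was found in T barcodes, and the 4 UMIs of NK barcodes all lay in 1 barcode.

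Slc7a7, the light chain that exports cationic amino acids from macrophages and is mutated in lysinuric protein intolerance, had 13.9 CPM in macrophage and 20.9 CPM in keratin-low macrophage barcodes. Krt8-positive barcodes had 2.82 CPM, a ratio of 7.42 (5.06 to 10.5) for the keratin-low set, seen in 3 of 4 tags since U4 had no UMI. Its relative Slc7a6 was lower in keratin-low macrophages (5.53 CPM) than in Krt8-positive barcodes (14.2 CPM), with a ratio of 0.39 (0.18 to 0.74). The remaining detected light chain, Slc7a5, the main importer of leucine and other large neutral amino acids in many tumours, had 10.6 CPM in Krt8-positive barcodes. Keratin-low levels of Slc7a5 were 7.98, 5.67 and 7.01 CPM in macrophage, T and NK barcodes, and no interval of the ratios to Krt8-positive barcodes excluded 1. Slc7a10, which carries small neutral amino acids, had no UMI in the 4 classes.

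Among carriers of cationic amino acids, Slc7a2 set macrophages and Krt8-positive cells apart from lymphoid barcodes. Its level was 116 CPM in Krt8-positive, 161 CPM in macrophage, 29.9 CPM in T and 23.6 CPM in NK barcodes. In keratin-low sets the values were 160, 14.2 and 4.67 CPM, and of the 20 UMIs left in T barcodes 13 lay in 1 barcode. The keratin-low NK ratio was 0.040 (0.0049 to 0.15), on 2 UMIs. Slc7a1, the more widely expressed arginine carrier, lay between 20.3 and 28.0 CPM in the 3 keratin-low immune classes and at 20.4 CPM in Krt8-positive barcodes, and none of these keratin-low ratios excluded 1. With all T barcodes the ratio of Slc7a1 was 1.35 (1.02 to 1.74).

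Slc7a2 also differed within macrophages. Barcodes with 3 or more UMIs of Arg1, the arginase that splits arginine into ornithine and urea, numbered 233, and 97 had none. Of the 16 members that could be called higher in the Arg1-bearing barcodes 3 were, beside 4.20% of genes, and none of the 25 were called lower, beside 1.74%. A lower call needed at least 10 UMIs in Arg1-negative barcodes, which not all 25 had. Slc38a3, with 2 UMIs in Arg1-bearing and 7 in Arg1-negative barcodes, had a ratio of 0.084 (0.0085 to 0.44) and could not be called. Slc7a2 had 185 CPM in Arg1-bearing and 87.5 CPM in Arg1-negative barcodes, a ratio of 2.11 (1.55 to 2.94), and 193 against 93.9 CPM in keratin-low barcodes. Slc38a10 had 32.4 against 15.2 CPM, a ratio of 2.13 (1.01 to 5.16), and in keratin-low barcodes 2.53 with an interval of 0.996 to 8.22 that spanned 1. Slc38a6 had 20.1 against 7.61 CPM, a ratio of 2.64 whose interval of 0.946 to 10.2 spanned 1. Slc7a11 stood at 69.2 against 40.0 CPM (ratio 1.73, 1.08 to 2.90) and was not called. Arg1-bearing barcodes were deeper, with a median of 4856 UMIs against 3135, and carried keratin transcripts more often, in 11.2% against 6.19%. Only 1 tag had 20 barcodes on both sides, so the direction could not be counted over tags.

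Glutamine carriers of the Slc38 family divided in opposite directions. Slc38a2, the amino acid-regulated sodium-coupled carrier with the most UMIs of all members (32292 over the 4 classes), was highest in Krt8-positive barcodes at 224 CPM. Its keratin-low levels were 133 CPM in macrophage, 167 CPM in T and 140 CPM in NK barcodes, and the T value was lower than the Krt8-positive one in 6 of 6 tags and the NK value in 3 of 3. These ratios of 0.59 to 0.75 did not reach 2-fold, but the adjusted p within tags was 0.00038 in macrophage, 0.027 in T and 0.0025 in NK barcodes. With all barcodes of the gates the edgeR adjusted p was 0.16, 0.14 and 0.18, so Slc38a2 passed only in keratin-low sets.

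Slc38a1 (chromosome 15, 96571418 to 96642913, minus strand), a close relative that lies beside Slc38a2 on the same chromosome, was near absent from Krt8-positive barcodes. It had 1.49 CPM there, with 208 UMIs in 174 of 5212 barcodes. Keratin-low macrophages had 89.7 CPM, T barcodes 99.9 CPM and NK barcodes 114 CPM, with ratios of 60.2 (48.4 to 74.7), 67.0 (53.7 to 83.4) and 76.8 (55.1 to 105). The intervals of the 3 immune levels overlapped one another. By tag, keratin-low T barcodes had 87.2 CPM in U2, 103 in U3, 77.5 in U4, 142 in D0, 105 in D1 and 112 in D4. Krt8-positive barcodes of the 6 tags had at most 1.82 CPM, so the immune and Krt8-positive values did not overlap in any tag. With each barcode thinned to 1000 UMIs, a Slc38a1 UMI was found in 9.76% of T, 9.12% of macrophage, 12.6% of NK and 0.154% of Krt8-positive barcodes. The unthinned shares were 16.0%, 27.7%, 35.4% and 3.34%, and the T gene Cd3e, thinned the same way, was in 45.0% of T and 0% of Krt8-positive barcodes.

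Of the other Slc38 members, Slc38a9 was called in macrophage and T barcodes and Slc38a6 in macrophages. Slc38a9, which reports lysosomal arginine to mTORC1, had 5.22 CPM in Krt8-positive barcodes. In keratin-low macrophage and T barcodes it had 22.1 and 19.1 CPM, with ratios of 4.24 (2.94 to 5.92) and 3.67 (2.40 to 5.38), and its direction held in 4 of 4 and in 4 of 6 tags, as D0 and D4 had no UMI in T barcodes. Slc38a6 had 24.6 CPM in keratin-low macrophages against 6.48 CPM, a ratio of 3.79 (2.69 to 5.21). Slc38a10 had 22.2 CPM in Krt8-positive barcodes and 31.3, 15.6 and 37.4 CPM in keratin-low macrophage, T and NK barcodes, and was called in none. Slc38a3, a system N carrier of glutamine, had 2.15 CPM in Krt8-positive barcodes and was also called in none.

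Slc1a5, a sodium-dependent exchanger of glutamine and other neutral amino acids (chromosome 7, 16781340 to 16798274, plus strand), was higher in lymphoid barcodes. It had 11.3 CPM in Krt8-positive barcodes, 45.3 CPM in keratin-low T and 46.7 CPM in keratin-low NK barcodes, with ratios of 4.01 (3.07 to 5.15) and 4.13 (2.51 to 6.40). T barcodes of the 6 tags lay between 37.2 and 69.8 CPM and NK barcodes of 3 tags between 27.8 and 90.0 CPM, all above the Krt8-positive range of 9.77 to 13.4 CPM. The lowest of these T values rested on 2 UMIs. In keratin-low macrophages it had 20.3 CPM, a ratio of 1.79 (1.23 to 2.53). The T and NK levels did not differ beyond their intervals.

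The other Slc1 carriers with at least 50 UMIs, Slc1a4 and Slc1a3, were lower in keratin-low macrophage and T barcodes than in Krt8-positive ones. Slc1a4, which exchanges serine, alanine and threonine, had 15.1 CPM there and 1.84 and 1.42 CPM in keratin-low macrophage and T barcodes, on 3 and 2 UMIs, with no UMI in NK barcodes. The macrophage ratio of Slc1a4 was 0.61 with all macrophage barcodes and 0.12 (0.025 to 0.36) in the keratin-low set. Slc1a3, a glutamate importer best known from glia, had 5.54 CPM in Krt8-positive barcodes, 1 UMI in keratin-low macrophages and none in keratin-low T or NK barcodes, where for NK a count of 0 allows 7.01 CPM.

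Slc43a2, a facilitator of branched-chain amino acids, methionine and phenylalanine (chromosome 11, 75531694 to 75577575, plus strand), was among the members with the largest macrophage ratios. It had 58.3 CPM in macrophage and 90.3 CPM in keratin-low macrophage barcodes against 4.61 CPM in Krt8-positive ones, a ratio of 19.6 (16.3 to 23.5). The tags gave 87.9 CPM in U2, 35.7 in U4 (on 3 UMIs), 69.3 in D0 and 109 in D1, and Krt8-positive barcodes did not pass 7.56 CPM in any tag. Keratin-low T barcodes had 8.50 CPM, a ratio of 1.85 (0.949 to 3.25), and NK barcodes no UMI. Within T barcodes, those with Foxp3 (63 barcodes) had 24.0 CPM on 4 UMIs and those with Cd8a or Cd8b1 and no Foxp3 (311 barcodes) 3.27 CPM on 3 UMIs, with overlapping intervals of 6.55 to 61.5 and 0.675 to 9.57. Slc36a1, a proton-coupled exporter of small amino acids from lysosomes, had 13.5 CPM in keratin-low macrophages and 1.88 CPM in Krt8-positive barcodes, a ratio of 7.17 (4.42 to 11.1) seen in 4 of 4 tags.

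The Slc6 carriers of taurine and creatine followed different orders. Slc6a6 had 155 CPM in Krt8-positive and 233 CPM in keratin-low macrophage barcodes, against 53.9 CPM in T and 72.4 CPM in NK barcodes. The macrophage ratio was 1.51 (1.36 to 1.67), higher in 4 of 4 tags, and the T and NK ratios were 0.35 (0.27 to 0.43) and 0.47 (0.32 to 0.66), lower in 6 of 6 and 3 of 3. Slc6a8 was highest in Krt8-positive barcodes at 55.2 CPM, with 24.6 CPM in keratin-low macrophages and 12.05 CPM in keratin-low T barcodes. Keratin-low NK barcodes had no Slc6a8 UMI, against 26.8 CPM when all NK barcodes were counted. With a count of 0 taken as up to 3 UMIs, the Krt8-positive level was at least 7.88-fold that of keratin-low NK barcodes. The glycine carrier Slc6a9 had 5.13 CPM in Krt8-positive barcodes and 1 UMI in each keratin-low immune class. Slc6a2 and Slc6a4 had 2.29 and 0.40 CPM in Krt8-positive barcodes and no UMI in the keratin-low immune ones.

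**Figure D2:**
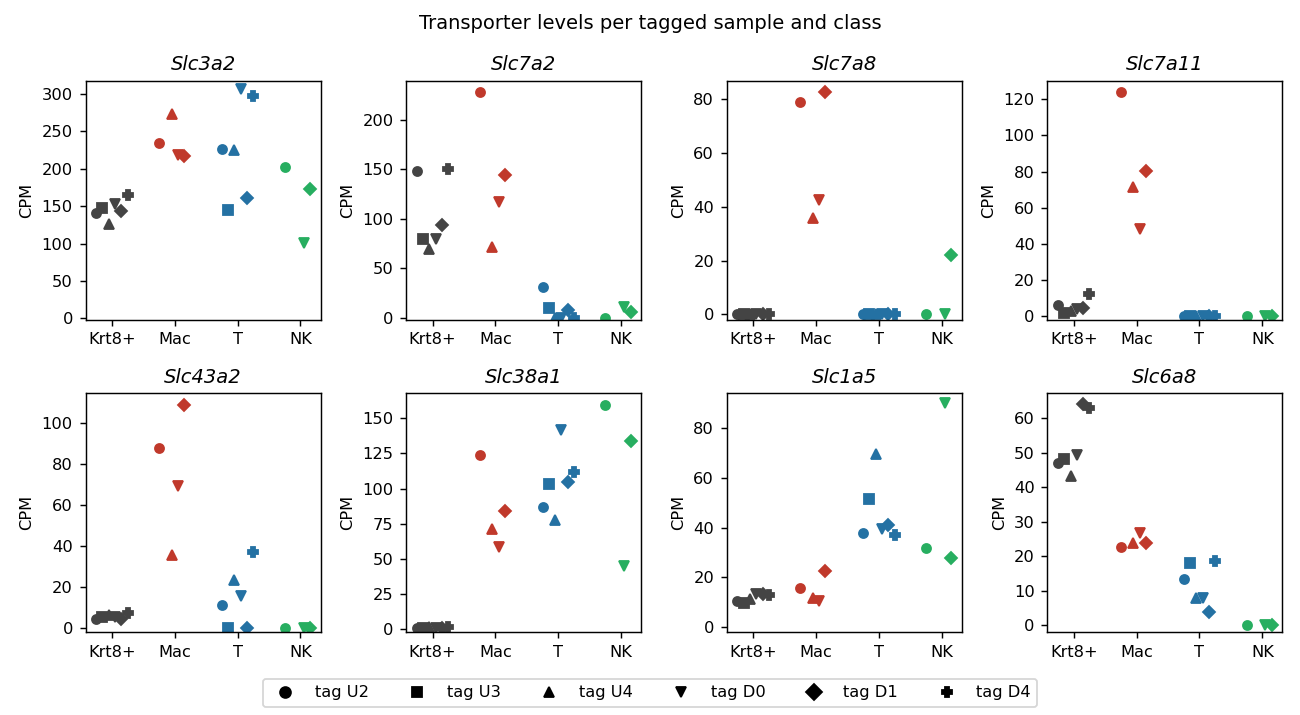
Level (CPM) of 8 transporters in each tagged sample, by class: Krt8-positive barcodes (Krt8+), keratin-low macrophage (Mac), T and NK barcodes; only tags with at least 20 barcodes in a class are shown, and the marker shape gives the tag. For Slc38a1 every immune value lies at 45.0 CPM or more and every Krt8-positive value at 1.82 CPM or less, whereas the classes overlap for Slc3a2.

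Within Krt8-positive barcodes the transporters were followed along 3 scores, each the share of a barcode's UMIs in a gene list that holds none of the 60 members. Barcodes were ranked within each tag, and the 1850 without a tag were ranked together. Each ranking was split into 3 groups of like size, and the top group (1736 barcodes) was set against the bottom group (1739). Barcodes without a tag count in the ratios of the pool but not in the directions by tag. A member was called where the ratio was at least 5 to 4 with the same direction in 6 of 6 tags, and 24 members had at least 50 UMIs in this class. The groups are ranges of a score and not cell types.

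The amino acid response score, from 22 genes known to be induced through ATF4, moved with the cystine exchanger and its heavy chain. As a share of UMIs, it was set mostly by the most counted of these genes. In Krt8-positive barcodes these were Nupr1 (961 CPM), Cebpb (632 CPM), Atf3 (284 CPM) and Atf4 (245 CPM). Ddit3 had 125 CPM, while Asns, Chac1 and Trib3 had 37.4, 10.6 and 9.41 CPM and weighed little. Along the score 5 of 24 members were called higher and none lower, beside 4.95% and 11.0% of 12024 genes. Slc7a11 had 9.66 CPM in the top and 1.66 CPM in the bottom group, a ratio of 5.82 (4.56 to 7.503). By tag, the top and bottom groups had 8.35 and 1.34 CPM in D0, 6.47 and 2.03 in D1, 31.6 and 0.78 in D4, 10.9 and 2.13 in U2, 4.34 and 0.80 in U3, and 8.90 and 0.52 in U4. The top group was thus the higher in every tag, and D4 had the widest gap, on 48 UMIs of which 1 barcode held 25. Slc3a2 had 188 against 112 CPM, a ratio of 1.68 (1.62 to 1.74), and Slc7a2 153 against 75.6 CPM, a ratio of 2.03 (1.95 to 2.11). Slc6a9, the glycine carrier, had 7.79 against 3.51 CPM (ratio 2.22, 1.84 to 2.69). Slc7a5 was called at 12.6 against 9.73 CPM, a ratio of 1.30 (1.14 to 1.47).

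Slc38a2, a known ATF4 target in starved cells, had 241 against 207 CPM along the same score (ratio 1.17, 1.13 to 1.20), higher in 6 of 6 tags but short of the limit for a call. Slc7a1 had 23.3 against 18.7 CPM (ratio 1.2498, 1.14 to 1.37), also higher in 6 of 6 tags and just short of the limit. Slc1a5 went the other way in the pool, with 9.98 against 13.4 CPM, but in only 3 of 6 tags. Depth and mitochondrial share differed little between the groups, with a median of 24129 UMIs and 3.64% in the top and 25647 UMIs and 3.87% in the bottom group. Scoring on barcodes thinned to 10000 UMIs gave Slc7a11 a ratio of 3.46 and Slc6a9 one of 1.68. The median log2 ratio over the 24 members was 0.18, against -0.14 for all genes.

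Along the NRF2 score, from 14 genes of glutathione and thioredoxin metabolism such as Gclm, Txnrd1 and Nqo1, Slc7a11 alone of 24 members was called higher, beside 4.76% of genes, and 2 were called lower, beside 4.10%. The most counted of the 14 genes, Txn1, weighed most in this score. Slc7a11 had 9.39 against 3.41 CPM (ratio 2.75, 2.28 to 3.34). Its top group was higher in 6 of 6 tags, from 3.39 against 0 CPM in U3 to 30.0 against 3.48 CPM in D4. With barcodes thinned to 10000 UMIs the ratio was 2.41, but the direction no longer held in 6 of 6 tags. Slc43a2 and Slc38a6 were lower, at 3.69 against 5.34 CPM (ratio 0.69, 0.56 to 0.85) and 5.23 against 8.09 CPM (ratio 0.65, 0.55 to 0.76). Slc3a2 had 170 against 136 CPM, a ratio of 1.26 (1.21 to 1.30), in 5 of 6 tags, and was not called. Slc7a2 ran opposite to its course along the amino acid response, with 93.8 against 141 CPM (ratio 0.67, 0.64 to 0.69), in 5 of 6 tags.

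Along the cycling score, from 10 genes of mitosis such as Top2a and Ube2c, Slc1a5 and Slc7a1 were called higher and Slc7a2, Slc6a6 and Slc1a3 lower, beside 17.5% and 6.98% of genes. Slc1a5 had 14.9 against 7.07 CPM (ratio 2.11, 1.85 to 2.42), and Slc7a1 24.8 against 15.7 CPM (ratio 1.58, 1.44 to 1.73). Slc7a5 had a similar ratio, 2.02 (1.77 to 2.31), but in 5 of 6 tags, since D4 had 5.68 against 11.7 CPM. Slc7a2 had 63.9 CPM in the top group and 165 CPM in the bottom group, a ratio of 0.39 (0.37 to 0.40). The cationic carriers Slc7a1 and Slc7a2 thus lay on opposite sides of 1 in 6 of 6 tags. Slc6a6 had 131 against 181 CPM (ratio 0.72, 0.70 to 0.75), and Slc1a3 4.39 against 6.71 CPM (ratio 0.65, 0.55 to 0.78). Cycling barcodes were deeper, at a median of 30808.5 against 23140 UMIs, and after thinning to 10000 UMIs the ratios of these 5 genes were 1.98, 1.52, 0.44, 0.74 and 0.77.

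**Figure D3:**
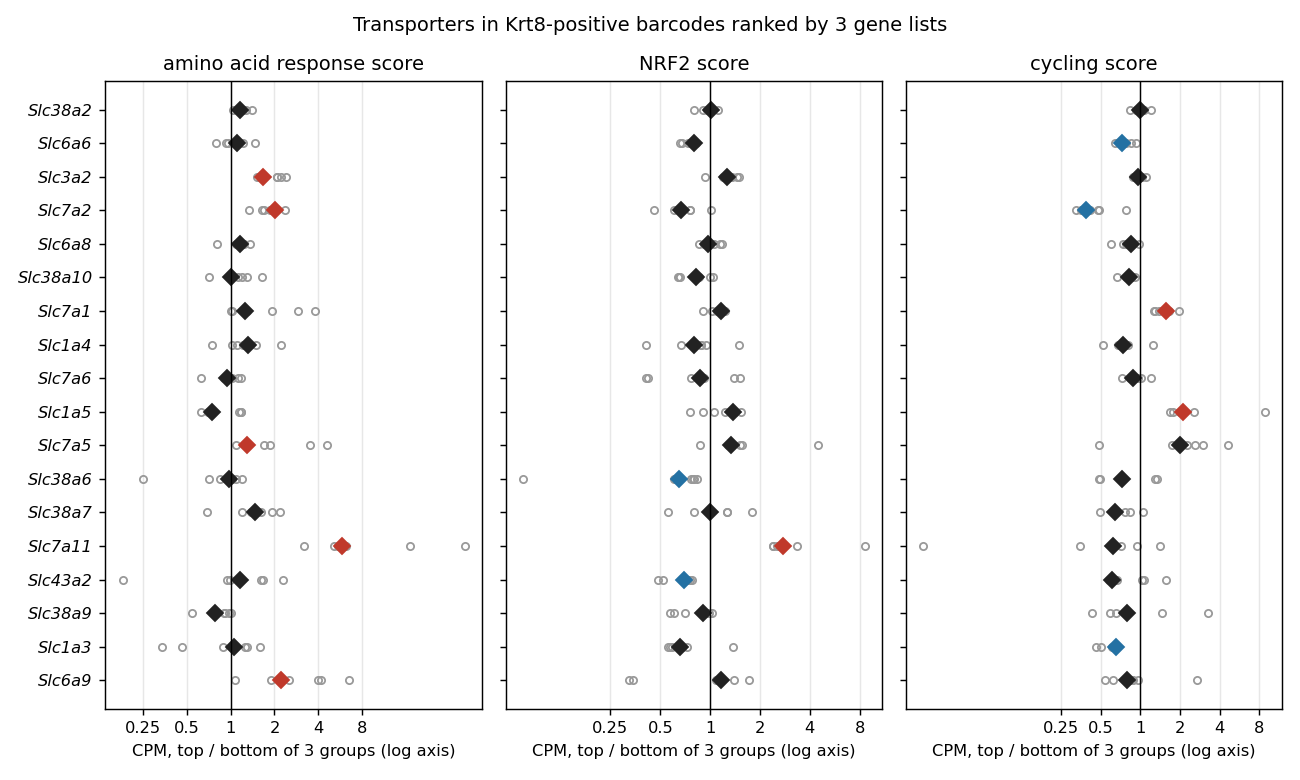
Ratio of CPM in the top to the bottom of 3 groups of Krt8-positive barcodes, ranked by each of 3 gene list scores (log axis), for the 18 members with at least 500 UMIs in this class. Diamonds are the pool (red called higher, blue called lower, dark not called) and open circles single tags, without those that had no UMI on a side; Slc7a11 lies at 5.82 along the amino acid response score, and Slc7a2 at 2.03 there and at 0.39 along the cycling score.

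Slc7a11 was concentrated in few Krt8-positive barcodes. A UMI was found in 372 of 5212 (7.14%), the highest barcode held 25, and the 72 barcodes with 3 or more held 51.8% of its 758 UMIs. These 72 barcodes had Ddit3 at 201 CPM against 122 CPM in the 4840 without Slc7a11, Gclm at 143 against 77.1 CPM and Slc3a2 at 215 against 144 CPM. Their C1qa level was 0.43 CPM and their Lyz2 level 3.88 CPM, against 0.57 and 2.40 CPM in barcodes without Slc7a11, so the macrophage genes were near 0 on both sides. The 72 came from all 6 tags, with 27 in U2, 14 in D1, 5 in D4 and 1 or 2 in the others, and 22 had no tag. In keratin-low macrophages Slc7a11 was spread more widely, with a UMI in 85 of 357 barcodes (23.8%) at a median depth of 4120 UMIs against 25137.5.

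At equal depth the same gene had the largest spread among members. In 4933 Krt8-positive barcodes thinned to 10000 UMIs, the Fano factor (variance over mean within tags, 1 for pure counting) was 3.13 for Slc7a11, and the median over 2799 genes with a mean within 2-fold of it was 1.03. Slc7a2 followed at 2.77, with a median of 1.19 for genes of like mean. Slc3a2, Slc38a2 and Slc6a6 had 1.62, 1.60 and 1.55. Slc7a6, Slc38a7, Slc6a9, Slc36a1, Slc38a9 and Slc7a7 lay between 1.004 and 1.014, below the median of like genes in each case.

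Between tagged samples the Krt8-positive levels of most members stayed within 2-fold. Of the 18 members averaging at least 50 UMIs per tag, 4 had a highest tag at least 2-fold above the lowest. This was a larger share than the 8.96% of 9531 genes, on few members. Slc7a11 varied most, with 1.63 CPM in U3, 3.16 in U4, 3.76 in D0, 4.50 in D1, 6.21 in U2 and 12.5 in D4, a 7.69-fold range on 6 UMIs at the low end. Few barcodes carried the level in D4, where 5 of 159 held 41 of the 48 UMIs. Slc7a2 was at 148 CPM in U2 and 150 in D4 and at 69.5 to 93.9 CPM in the other 4 tags. Both genes thus had their highest level in D4 with U2 next. Slc7a5 ran from 6.24 CPM in U3 to 14.2 in D1 (2.28-fold), and Slc1a3 from 4.62 CPM in D1 to 9.83 in U4 (2.13-fold). The next gene in range, Slc7a1, lay between 14.6 CPM (U4) and 27.1 CPM (D0), 1.86-fold. At the other end Slc7a6 differed 1.16-fold, Slc38a2 1.23-fold and Slc6a6 1.26-fold between the outermost tags.

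**Figure D4:**
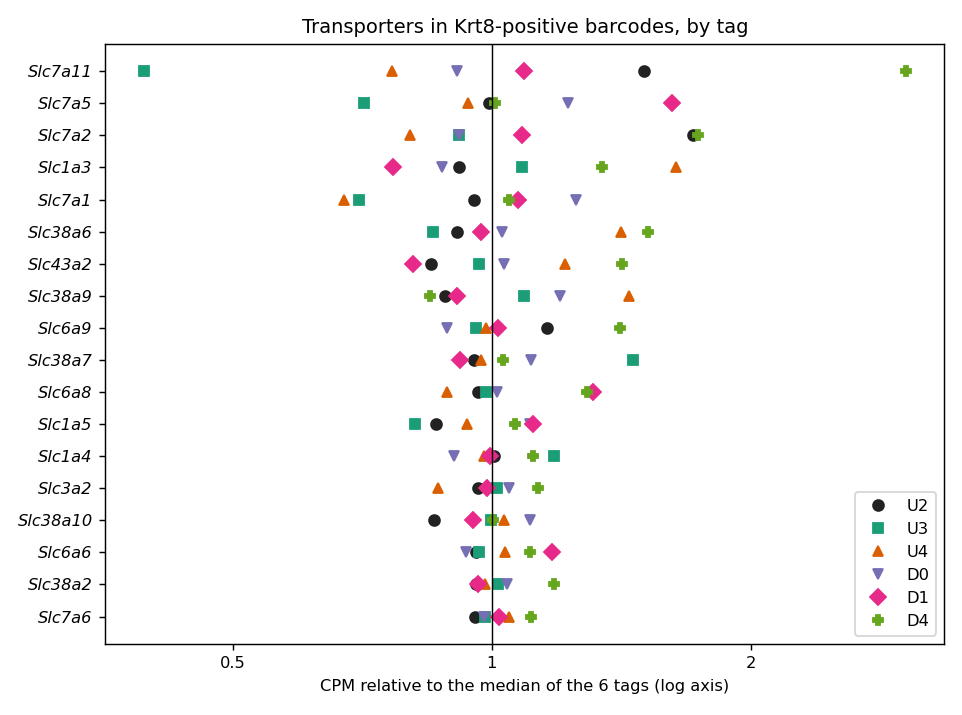
Level in Krt8-positive barcodes of the 18 members averaging at least 50 UMIs per tag, each tag relative to the median of the 6 tags (log axis), ordered by range. Colours and shapes mark tags, whose treatment is not known; Slc7a11 spans 7.69-fold, from U3 to D4, and Slc7a6 at the bottom 1.16-fold.

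The enzymes and regulators beside the transporters gave the following counts, from lists that hold none of the 60. Of the amino acid response genes, 9 of the 21 that could be called were lower in macrophage, 6 of 20 in T and 7 of 18 in NK barcodes, beside 13.8%, 14.5% and 21.2% of all genes. In keratin-low barcodes they were 12 of 20, 11 of 19 and 14 of 16, beside 25.6%, 26.9% and 33.5%. Higher calls in this list were Stc2 in all T barcodes and Cebpb in keratin-low macrophages. Its most counted genes were Nupr1 (961 CPM in Krt8-positive and 155 CPM in keratin-low macrophage barcodes), Cebpb (632 and 1563 CPM), Atf3 (284 and 433 CPM) and Atf4 (245 and 102 CPM). Macrophages thus had high Slc7a11 beside lower Atf4, Ddit3 (30.7 against 125 CPM) and Asns (6.76 against 37.4 CPM). Of the 14 NRF2 and glutathione genes, 1 was higher and 4 of 13 lower in keratin-low macrophages, near the 14.1% and 25.6% of all genes. Nfe2l2, which encodes NRF2, was the higher one at 394 against 127 CPM, while Txn1 (770 against 822 CPM), Hmox1 (197 against 176 CPM) and Txnrd1 (96.4 against 98.3 CPM) differed little.

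Among 10 glutamine and aspartate enzymes, Got1 and Gpt2 were higher in keratin-low macrophages, beside 14.1% of all genes. Of the 7 that could be called lower 2 were, beside 25.6%, so both counts were near the shares of all genes. Got1 had 249.99 against 55.7 CPM, whereas Glud1 (193 against 201 CPM) and Got2 (57.1 against 66.1 CPM) were near level. Of 9 detected arginine and polyamine genes 3 were higher in keratin-low macrophages (Arg1, Ass1 and Asl), beside 14.1% of all genes. The most counted of them were Sat1 (641 against 539 CPM), Odc1 (249.99 against 197 CPM), Sms (63.3 against 174 CPM) and Srm (24.6 against 60.4 CPM). Sms and Srm were the 2 called lower, of 8 that could be, beside 25.6% of genes. Odc1, which starts polyamine synthesis, was highest in keratin-low T barcodes at 663 CPM. Of 16 mTORC1 amino acid sensing genes none was called higher and 2 lower in keratin-low macrophages, beside 14.1% and 25.6% of genes. In keratin-low T barcodes none of this list was called either way, beside 15.8% and 26.9%. Its most counted genes in Krt8-positive barcodes were Rheb (207 CPM), Lamtor2 (154 CPM), Lamtor4 (116 CPM) and Lamtor5 (104 CPM).

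Amino acid carriers outside the 6 families gave 5 of 12 higher in keratin-low macrophages, beside 14.1% of all genes. None of the 6 that could be called lower was, beside 25.6%. The largest was Slc15a3, a lysosomal histidine and peptide carrier, with 317 CPM against 0.47 CPM in Krt8-positive barcodes and 52.4 CPM in keratin-low T barcodes. Slc25a12 (16.6 against 17.1 CPM), Slc25a13 (7.37 against 10.1 CPM) and Slc15a4 (16.0 against 9.48 CPM) were not called, and Slc25a44, a mitochondrial carrier of branched-chain amino acids, was called at 12.9 against 5.65 CPM. Of the 6 branched-chain enzymes 1 was higher (Bcat2) in keratin-low macrophages, beside 14.1% of all genes. Of the 5 that could be called lower 1 was (Bcat1), beside 25.6%. Bcat1, the cytosolic aminotransferase, had 9.71 CPM in Krt8-positive barcodes and no UMI in keratin-low macrophages. Bckdk (26.4 against 23.9 CPM) and Bckdha (12.3 against 12.04 CPM) were near level, and Bcat2 had 19.0 against 6.51 CPM. Both detected genes of tryptophan and phenylalanine use, Wars (17.2 against 11.0 CPM) and Ido2 (0 against 0.35 CPM), were not called.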

How the data were processed

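Values deposited by the authors are counts of UMIs, whole numbers per gene or antibody tag and barcode, from 1 droplet lane. They were made with Cell Ranger on mm10, per the submitters' processing notes, and written by version 3.1.0, per the file headers; which annotation was used is not stated there. Of 9747 barcodes (187339115 gene UMIs), 8784 had at least 500 genes and under 15% mitochondrial UMIs. HTODemux (Seurat 5.3.0, R 4.3.3, quantile 0.99, seed 42) found more than 1 tag on 865, which were removed as doublets. It found 1 tag on 5590 and none on 2329. Barcodes meeting more than 1 gate (51) or none (1409) were left out, so 6459 remained in 4 classes. Doublets within a tag or with an untagged cell remain.

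UMIs were summed per class or class and tag and divided by the gene UMI total (Python 3.11.15, scipy 1.17.1). Levels carry exact Poisson and shares exact Clopper-Pearson 95% intervals, and a count of 0 allows up to 3 UMIs; all cover counting error only. Positions come from GENCODE M21 (GRCm38, the same assembly as mm10) and promoters from RefSeq. Sums per class and tag were compared with edgeR 4.0.16 (quasi-likelihood test, tag as block, library size the gene UMI total). The tags are taken as separate samples, as the labels give samples per treatment but not their tags. Counting and test were tested on simulated data. Members and lists were chosen with earlier results of these data known. Named were the 12 members with most UMIs, up to 6 called members per class and direction, Slc3a2 with its light chains, up to 5 called members per score and direction, the 5 with the widest tag range, and the 4 most counted genes of each other list. Any other gene with values was named after its values were seen. The alternatives were other doublet, gate, gene minimum, denominator, low-count, fold, score and tag choices.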

Additional observations from a re-analysis of the deposited data

Results flagged for a closer look

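Among the 18 transporters averaging at least 50 UMIs per tag in Krt8-positive barcodes, 2 had 1 tag far from the other 5, by Dixon's criterion for the gap of the outermost of 6 values. Slc38a7, the lysosomal glutamine exporter, had 9.23 CPM in U3 (34 UMIs) and 5.81 to 7.03 CPM in the other tags. Slc38a2 had 265.6 CPM in D4 and 215 to 234 CPM in the other tags. Chance flags about 1 in 20 such groups, and the treatment of U3 and D4 is not known.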

How the results depend on the processing

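The number of members called lower depended most on the settings. In macrophages it was 2, and 0 with barcodes of more than 1 tag or gate kept, 5 in keratin-low barcodes and 5 at 1.5-fold. In T barcodes it was 7, and 2 with those barcodes kept and 12 at 1.5-fold. In NK barcodes it was 3, and 5 both in keratin-low barcodes and at 1.5-fold. The ratio of Slc7a11 in T to Krt8-positive barcodes turned to 1.18 with barcodes of more than 1 tag or gate kept. Along the amino acid response score (5 higher, 0 lower), 2 score groups in place of 3 left 3 higher and thinning to 10000 UMIs gave 1 lower. Along the NRF2 score (1 higher, 2 lower), 2 groups left 0 lower and thinning 0 higher. Leaving out each tag, the macrophage count of lower members ran from 0 (without U4 or D0) to 2, with 1 without D1. The amino acid response count of lower members ran from 0 to 1 (without U2, D1 or D4). The NRF2 counts ran from 1 to 2 higher (without U4 or D4) and from 2 to 4 lower (without U3 or D4), and the cycling count of lower members reached 5 without U3, from 3. The cause of these shifts was not tested, but fewer tags make the condition on every tag easier to meet. Under all alternatives 149 counts stayed within 1.5 times, among them every count of members called higher in an immune class. Of single-member ratios, 857 moved by less than their interval and 91 by more. Leaving out 1 tag also moved called ratios to Krt8-positive barcodes by over 1.5 times: without U2 those in T barcodes fell to 0.16 from 0.26 (Slc7a2), to 0 from 0.17 (Slc7a11) and to 0 from 0.26 (Slc1a3), and Slc6a2 in macrophages to 0.21 from 0.32. Without D1, Slc6a9 in T barcodes had 0.22 in place of 0.46 and Slc1a3 in macrophages 0.28 in place of 0.46. Without U3, which holds 1 of the 2 Krt8-positive UMIs, Slc7a8 in macrophages had 6311 in place of 3225. Depth limits NK barcodes most, where 3 UMIs are 7.01 CPM. The test paired within tags, with the tag as a block, and its alternatives were chosen after seeing the data. It gave 12 members higher and 7 lower in keratin-low macrophages, 4 and 11 in T and 3 and 5 in NK barcodes. With all barcodes of the gates, 1 was lower in macrophages and 3 in NK barcodes. Fitting without the block gave 10 lower in T barcodes and left the other counts as they were, and TMM scaling gave 11 higher in macrophages and moved the median log2 difference of all genes from -0.44 to -0.67 in NK barcodes. Leaving out each tag, the counts ran from 9 to 13 higher and from 4 (without U2) to 6 lower in macrophages, from 4 to 5 higher and from 6 (without U2) to 8 lower in T barcodes, where it was 7 without D1 or D4, and from 2 to 3 higher and from 3 (without D1) to 4 lower in NK barcodes. No paired comparison of treatments was possible because no label ties a tag to a treatment.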
